A study of Homo sapiens with 16 samples.

Results

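The genes described here are human zinc finger genes whose symbol is ZNF followed by digits only, measured in colorectal carcinoma cells that were deprived of glutamine. Of 22395 genes with a probe set of their own on the array, 435 carried such a symbol, and the 165 of these with a mean log2 intensity of 5 or more over the 16 arrays are the members. Each gene was read from the brightest of its probe sets that name no other gene. By this rule members were selected on their measured level, so the levels below are a description. The share above this level was 37.9% of the 435 ZNF genes, against 34.6% of all 22395 genes. The other 270 ZNF genes were dimmer. Just inside the limit stood ZNF703 at a mean log2 of 5.04, ZNF114 at 5.05 and ZNF91 at 5.05. Just outside stood ZNF814 at 4.87, ZNF646 at 4.91 and ZNF274 at 4.94.

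Total RNA came from derivatives of 2 colorectal carcinoma lines, DLD1 and HCT116, each kept as 2 isogenic derivatives. PIK3CA Mut derivatives lack the wild-type allele, removed by knockout, and PIK3CA WT derivatives lack the mutant one in the same way. PIK3CA encodes the catalytic subunit p110-alpha of phosphoinositide 3-kinase. Each derivative was cultured without glutamine or with glutamine for 24 h, and all 8 groups shared DMEM and 10% dialyzed fetal bovine serum. Every group had 2 biological replicates, and each genotype of a line was represented by 1 derivative, so genotype and derivative cannot be told apart. The deposited values are linear intensities of an Affymetrix whole-transcript array, with array medians between 3.57 and 3.70, and replicates of a group correlated at 0.989 to 0.992 over log2 values. DDIT3, a stress-induced transcription factor gene used to check the treatment labels, was higher without glutamine in each derivative, by 2.36 to 3.40 on the log2 scale (limma, adjusted p = 1.96e-07 on average). ASNS, the asparagine synthetase gene used for the same check, was higher in DLD1 Mut (1.16), DLD1 WT (2.28) and HCT116 WT (0.49) but lower in HCT116 Mut (−0.71, adjusted p = 0.00046), so the 2 genes ran opposite ways in that derivative. Of 9 epithelial marker genes 6 had a mean log2 of 5 or more, and the 4 endothelial and 6 fibroblast genes measured were all dimmer than that. Of 6 leukocyte genes measured only CD68, which epithelial tumour cells can also express, reached it, while the defining marker PTPRC had a mean log2 of 0.93. The summed intensity of the leukocyte genes was 34.3 to 232 without glutamine and 37.7 to 123 with it, that of the fibroblast genes 20.5 to 27.4 and 20.5 to 24.4, and that of the endothelial genes 9.69 to 11.9 and 9.78 to 11.6. CD68 rose by 0.62 on average, and its part in the results was not tested.

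Most ZNF proteins bind DNA through a row of C2H2 zinc fingers, each a short fold held by a zinc ion, and the fingers of neighbouring repeats read successive bases. The largest class also carries a KRAB domain, which recruits TRIM28 and, through it, histone H3 lysine 9 methyltransferases and heterochromatin proteins. Many KRAB genes lie in clusters of tandem copies on chromosome 19, and many of their proteins bind transposable elements. A smaller part of the genes named ZNF works elsewhere, for example in ribosome maturation, RNA processing or the actin cytoskeleton.

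The members were of modest brightness. Their mean log2 intensities ran from 5.04 to 9.53 with a median of 6.09, against a median of 6.96 for all 7740 genes at or above the same limit. The brightest was ZNF121 at a mean log2 of 9.53, then ZNF146, a protein made almost only of fingers, at 9.06. ZNF326 followed at 8.66, ZNF770 at 8.54, ZNF317 at 8.53 and ZNF638 at 8.40. On chromosome 19 lay 64 of the 165, with 15 on chromosome 7, 14 on chromosome 16 and 12 on chromosome 1. All 165 were above the brightness filter used for testing.

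Promoter windows were read at the start sites of the members, and those of a few named members are printed here as a description. RefSeq (GRCh38.p14) windows of 300 bases, 250 before and 50 after the gene's start, matched 149 of the 165 members. Those without a window were ZNF114, ZNF165, ZNF251, ZNF394, ZNF417, ZNF462, ZNF473, ZNF480, ZNF618, ZNF621, ZNF623, ZNF654, ZNF703, ZNF704, ZNF777 and ZNF827. Where a gene had several windows, as for 30 members, the one listed at the top was read. The following 4 belong to genes that rose without glutamine: ZNF699 rose most on average, ZNF268 and ZNF227 rose in all 4 derivatives, and ZNF264 held an ETS-type word. Capitals mark CCGGAAGT, ACTACAA, TGACGTCA and GGGCGG on either strand.
ZNF699 (chr19:9309789-9310088, minus strand): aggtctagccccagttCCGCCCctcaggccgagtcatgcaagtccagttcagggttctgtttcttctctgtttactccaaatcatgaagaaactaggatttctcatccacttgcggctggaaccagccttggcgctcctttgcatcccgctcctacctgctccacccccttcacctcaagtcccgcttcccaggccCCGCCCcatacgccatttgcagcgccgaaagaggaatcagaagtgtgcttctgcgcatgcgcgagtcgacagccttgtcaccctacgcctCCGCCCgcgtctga
ZNF268 (chr12:133181245-133181544, plus strand): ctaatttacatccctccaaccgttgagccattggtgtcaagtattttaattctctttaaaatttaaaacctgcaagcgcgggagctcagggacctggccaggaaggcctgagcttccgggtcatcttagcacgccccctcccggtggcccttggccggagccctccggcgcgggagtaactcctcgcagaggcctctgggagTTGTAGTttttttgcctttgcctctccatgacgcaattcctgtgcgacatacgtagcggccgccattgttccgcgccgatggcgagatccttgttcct
ZNF227 (chr19:44212282-44212581, plus strand): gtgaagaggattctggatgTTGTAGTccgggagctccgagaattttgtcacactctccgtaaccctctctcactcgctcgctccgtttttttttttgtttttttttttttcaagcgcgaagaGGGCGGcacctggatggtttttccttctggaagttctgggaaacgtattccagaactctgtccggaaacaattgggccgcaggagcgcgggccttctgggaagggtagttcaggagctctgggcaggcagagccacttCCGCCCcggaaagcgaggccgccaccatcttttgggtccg
ZNF264 (chr19:57191250-57191549, plus strand): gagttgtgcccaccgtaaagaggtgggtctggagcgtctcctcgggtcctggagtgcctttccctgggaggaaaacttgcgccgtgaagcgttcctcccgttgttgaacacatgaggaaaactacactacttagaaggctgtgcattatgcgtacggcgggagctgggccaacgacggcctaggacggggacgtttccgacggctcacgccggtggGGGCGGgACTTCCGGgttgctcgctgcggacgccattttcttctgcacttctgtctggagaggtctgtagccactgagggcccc
The next 2 are windows of members that fell most on average, apart from ZNF704, which had no window.
ZNF511 (chr10:133308664-133308963, plus strand): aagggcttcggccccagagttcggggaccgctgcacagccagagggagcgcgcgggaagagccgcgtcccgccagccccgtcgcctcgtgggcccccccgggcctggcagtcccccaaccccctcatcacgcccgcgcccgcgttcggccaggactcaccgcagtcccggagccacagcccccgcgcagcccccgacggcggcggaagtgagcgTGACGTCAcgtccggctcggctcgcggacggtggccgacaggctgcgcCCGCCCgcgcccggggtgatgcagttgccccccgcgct
ZNF692 (chr1:248859036-248859335, minus strand): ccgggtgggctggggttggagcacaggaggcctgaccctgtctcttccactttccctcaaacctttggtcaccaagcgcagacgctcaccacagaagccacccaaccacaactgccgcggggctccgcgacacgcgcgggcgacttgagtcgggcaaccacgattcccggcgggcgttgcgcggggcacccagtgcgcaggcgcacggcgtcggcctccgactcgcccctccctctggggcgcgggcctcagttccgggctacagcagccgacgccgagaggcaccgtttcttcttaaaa
CCGGAAGT, the core bound by ETS-family factors, had the largest difference in share of the 12 words, in percentage points, between members and genes at the same brightness. It was present in 21.5% of the 149 member windows, against 10.6% of the windows of genes with a mean log2 of 5 or more and 4.44% of all 27305 windows. ACTACAA, part of the site known for ZNF143, was present in 8.72% of member windows, against 4.21% and 2.95%. TGACGTCA, the cyclic AMP response element, was present in 8.05%, against 3.84% and 1.98%. The GC box GGGCGG ran the other way, with 66.4% of member windows, against 73.3% of the windows at the same brightness. The median GC content was 63% in member windows and 65.7% in windows at the same brightness. Both strands were searched for 12 words in all, and the NRF1-type word can overlap TTTNGCGC by shared GCGC letters.

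The words were also compared among the members by their average change without glutamine. CCGGAAGT was in 18 of 86 windows of members that rose on average and in 13 of 54 of members not called. ACTACAA was in 10 of 86 and in 3 of 54, and in 0 of the 9 windows of members that fell. The E2F-type word TTTNGCGC was in 0 of 86 windows of members that rose, 2 of 9 of those that fell and 2 of 54 of those not called. Its share was 2.68% of member windows, against 3.52% at the same brightness. TGACGTCA was in 6 of 86, 2 of 9 and 4 of 54 in the same order. Only 9 windows were of falling members, and differences among these sets were not tested. TGATGNAA, an element bound by ATF4 with C/EBP factors, was in 3 of the 149 member windows, a share of 2.01%, against 1.76% at the same brightness. The 6 remaining words were CCAAT in 44.3% of member windows, the NRF1-type word in 12.8%, CACGTG in 6.04%, AAGATGGC in 4.70%, TATAAA in 2.01% and TCACNCCAC in 1.34%. In windows at the same brightness their shares were 37.8%, 13.6%, 10.9%, 6.81%, 4.87% and 1.10%.

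Without glutamine the ZNF genes moved mainly upward, and few fell. In DLD1 Mut 75 of the 165 members were higher and 7 lower (limma, Benjamini-Hochberg adjusted p below 0.05 over all 15676 genes tested). These are shares of 45.5% and 4.24%. Of all tested genes 16.8% were higher and 16.8% lower in that derivative, and of those with a mean log2 of 5 or more 26.7% were higher and 25.4% lower. The members' median change was 0.39 on the log2 scale, and 76.4% of members had a positive change, against 50.1% of genes at the same brightness. Fewer cells of a kind and less RNA per cell cannot be told apart in RNA from whole cultures.

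DLD1 WT and HCT116 Mut had the same one-sided pattern. In DLD1 WT 54 members were higher (32.7%) and 7 lower (4.24%), with a median change of 0.24. Of all tested genes 14% were higher and 13% lower there, and of those at the same brightness 21.6% and 20.4%. In HCT116 Mut 66 members were higher (40%) and 8 lower (4.85%), with a median change of 0.40. The background there was 16.4% higher and 16.5% lower over all tested genes, and 24.5% and 25.9% at the same brightness.

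HCT116 WT had the fewest members called. There 21 members were higher (12.7%) and 7 lower (4.24%), with a median change of 0.15. Of all tested genes 10.3% were higher and 10.1% lower in this derivative, and at the same brightness 15.8% and 17.1%. The share of members that rose was thus close to the background, and the share that fell was below it. Shares of called members lean on single arrays in the WT derivatives. In DLD1 WT the share higher was 13.3% without the −Gln replicate 1, 18.8% without the −Gln replicate 2, 14.5% without the +Gln replicate 1 and 20% without the +Gln replicate 2. In HCT116 WT it was 6.67% and 7.27% without the −Gln replicates 1 and 2, and 5.45% without the +Gln replicate 2.

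**Figure D1:**
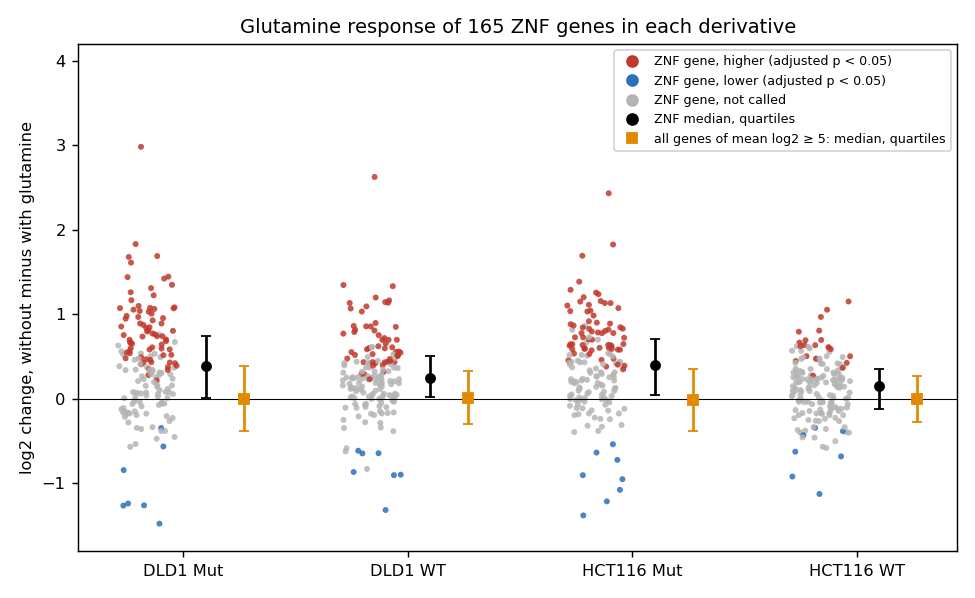
Change of each of the 165 ZNF genes on the log2 scale (vertical axis, without minus with glutamine, 2 arrays each) in the 4 derivatives (horizontal axis), coloured by the limma call, with black points and bars for the members' median and quartiles and orange squares for those of all 7740 genes with a mean log2 of 5 or more. The members' medians lie at 0.39, 0.24, 0.40 and 0.15, and those of the other set lie near 0 in every derivative.

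**Figure D2:**
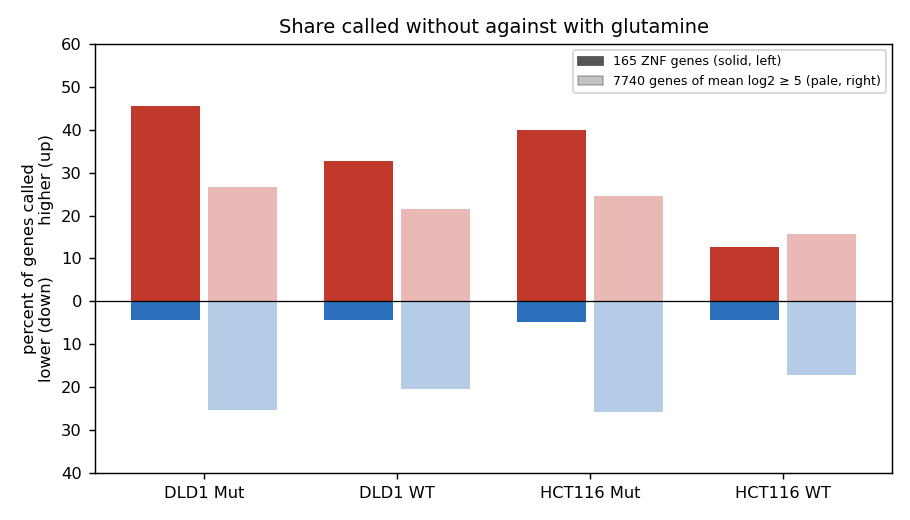
Percent of genes called higher (above the line) and lower (below it) without glutamine at a limma adjusted p below 0.05, for the 165 ZNF genes (solid, left) and for all 7740 genes with a mean log2 of 5 or more (pale, right). The ZNF bars above the line exceed the pale ones in 3 derivatives and not in HCT116 WT, and those below the line are shorter in all 4.

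The typical member could be followed array by array. The median intensity over the 165 members was 82.3 and 88.5 without glutamine in DLD1 Mut, against 65.6 and 65.9 with glutamine. In DLD1 WT it was 80.5 and 76.2 without and 65.2 and 66.3 with glutamine. In HCT116 Mut the medians were 82.3 and 86.3 without glutamine, against 62.4 and 58.7 with it. HCT116 WT had 61.5 and 65.7 without glutamine and 55.9 and 57.6 with it. The 2 pairs of arrays did not overlap in any derivative, and HCT116 WT had the smallest gap.

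Over the average of the 4 derivatives 94 members were higher and 12 lower (57.0% and 7.27%), with 59 not called. Of all tested genes 24.3% were higher and 23.5% lower on average, and at the same brightness 34.7% and 34%. The members' median change was 0.29 on the log2 scale and 133 of the 165 changes were positive. By call in the single derivatives, 99 members were higher in at least 1 derivative and lower in none, and 15 were lower in at least 1 and higher in none. Another 50 were called in no derivative. Matching shares over all tested genes were not made for these patterns, so the counts describe the members only. ZNF101, a KRAB gene, was the only member called in both directions.

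Shared calls were few. Higher in all 4 derivatives were 11 members, a share of 6.67%, against 3.54% of all tested genes and 6.42% at the same brightness. This share was close to the background. They were ZNF227, ZNF268, ZNF362, ZNF460, ZNF532, ZNF592, ZNF621, ZNF699, ZNF770, ZNF783 and ZNF827. No member was lower in all 4, against 3.67% of all tested genes and 6.9% at the same brightness; the 2 counts of members were 6 to 11 and 0 to 1 when any array was left out. Without the −Gln replicate 1 of DLD1 WT, or without the +Gln replicate 2 or the −Gln replicate 2 of HCT116 WT, 3.64% of members were higher in all 4, and without the −Gln replicate 1 of HCT116 WT 4.24% were. Without the +Gln replicate 1 or 2 of HCT116 Mut, or the +Gln replicate 1 of HCT116 WT, 0.606% were lower in all 4. A further 21 members were higher in 3 derivatives and not called in HCT116 WT. The matching share over all tested genes was not made. HCT116 WT also had the smallest share of all tested genes called higher, 10.3%.

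ZNF699, a KRAB gene mutated in a congenital syndrome with anaemia and developmental delay, had the largest rise in 3 of the derivatives. Its intensity was 275 and 289 without glutamine in DLD1 Mut, against 35.3 and 36.1 with glutamine. In DLD1 WT it was 260 and 231 without and 45.2 and 34.9 with glutamine. In HCT116 Mut it was 180 and 190 without glutamine, against 31.6 and 37.1 with it. These arrays were far apart, and the fitted changes were 2.98 ± 0.19 (SE), 2.63 ± 0.19 and 2.43 ± 0.19 on the log2 scale, or 7.9-fold, 6.17-fold and 5.4-fold (limma, highest adjusted p = 7.97e-06). In HCT116 WT the intensity was 57.4 and 66 without glutamine and 48.4 and 32.3 with it. The arrays still did not overlap, but the change was 0.64 ± 0.19 (adjusted p = 0.034), and this call was lost without either −Gln replicate or without the +Gln replicate 2, at changes of 0.74, 0.54 and 0.35.

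ZNF362, a close paralog of ZNF384, measured 100 and 96 without glutamine in DLD1 Mut, against 38.8 and 24.2 with glutamine. In DLD1 WT it measured 158 and 188 without and 60.9 and 75.4 with glutamine, so that its level was lower in the DLD1 Mut arrays in both media. The changes were 1.68 ± 0.26 in DLD1 Mut, 1.35 ± 0.26 in DLD1 WT, 0.79 ± 0.26 in HCT116 Mut and 1.15 ± 0.26 in HCT116 WT. ZNF362 lost its call in HCT116 Mut without the +Gln replicate 1 (0.56), the −Gln replicate 1 (0.78) or the −Gln replicate 2 (0.79). In HCT116 WT it lost the call without the +Gln replicate 2 (0.88) or the −Gln replicate 2 (0.97).

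ZNF268, a KRAB gene, measured 132 and 112 without glutamine in DLD1 Mut and 37.3 and 42.4 with it. Its changes were 1.61 ± 0.16, 1.33 ± 0.16, 0.90 ± 0.16 and 0.67 ± 0.16 in DLD1 Mut, DLD1 WT, HCT116 Mut and HCT116 WT. The last of these was not called without the +Gln replicate 1 (0.46), the −Gln replicate 1 (0.70) or the −Gln replicate 2 (0.64).

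ZNF621 rose in all 4 derivatives by similar amounts. It measured 107 and 114 without glutamine in DLD1 Mut, against 45.4 and 41.4 with glutamine, and 87.3 and 93.4 without in HCT116 WT, against 52.3 and 51 with it. All 8 arrays without glutamine lay above all 8 with it, and the average change was 1.06 ± 0.05 (limma, adjusted p = 4.5e-08). ZNF460, another KRAB gene, measured 261 and 293 without glutamine in HCT116 WT, against 154 and 115 with it. Its change there, 1.05 ± 0.17, was the second largest rise of a member in that derivative after ZNF362.

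ZNF264, ZNF791 and ZNF14, all KRAB genes, were called higher in 3 derivatives and not in HCT116 WT. ZNF264 measured 198 and 182 without glutamine in HCT116 Mut, against 76.6 and 69 with it. In HCT116 WT it measured 98.9 and 104 without and 86.5 and 72.5 with glutamine, a change of 0.36 ± 0.20 (adjusted p = 0.26). ZNF791 measured 436 and 450 without glutamine in DLD1 Mut, against 116 and 162 with it, a change of 1.69 ± 0.18. In HCT116 WT its change was 0.51 ± 0.18 (adjusted p = 0.068). ZNF655, which binds the signalling protein VAV1, measured 208 and 265 without glutamine in HCT116 Mut, against 80.3 and 54.4 with it, a change of 1.83 ± 0.24. ZNF14 changed by 1.69 ± 0.34 there and by 0.16 ± 0.34 in HCT116 WT (adjusted p = 0.8), where its arrays overlapped. The DLD1 Mut call of ZNF14 was lost without the +Gln replicate 1 (adjusted p = 0.0677), and its DLD1 WT call without the +Gln replicate 1 or either −Gln replicate (adjusted p up to 0.205). The DLD1 WT call of ZNF264 was lost without the +Gln replicate 1 or the −Gln replicate 1 (adjusted p up to 0.0638).

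**Figure D3:**
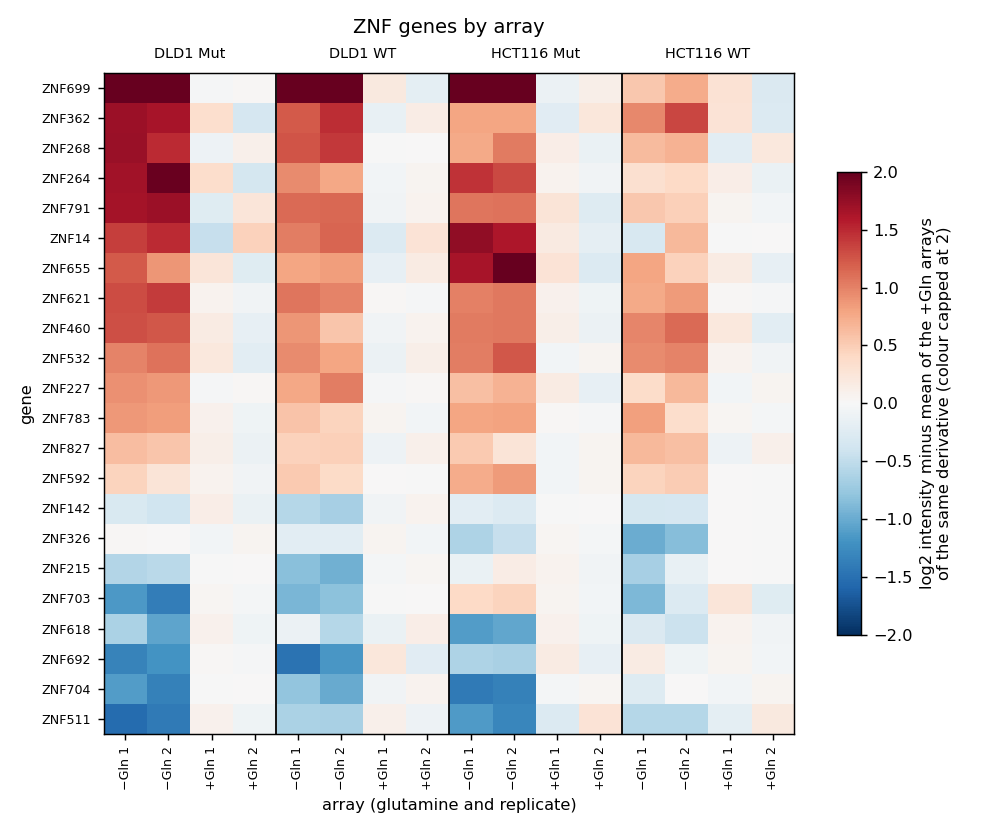
Log2 intensity of 22 ZNF genes (rows) on each of the 16 arrays (columns, without glutamine left of with glutamine in each derivative) minus the mean of the arrays with glutamine of that derivative, with the colour capped at 2. Rising genes are dark in the −Gln columns of DLD1 Mut, DLD1 WT and HCT116 Mut and paler in HCT116 WT, where ZNF699 changed by 0.64 against 2.98 in DLD1 Mut.

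The falling members were a small and mixed set. On average over the derivatives ZNF511 changed by −0.98 ± 0.09, ZNF704 by −0.91 ± 0.06 and ZNF692 by −0.79 ± 0.09 (limma, highest adjusted p = 1.99e-05). ZNF511 measured 102 and 111 without glutamine in DLD1 Mut, against 316 and 279 with glutamine, and 35 and 31 without in HCT116 Mut, against 62.9 and 92.8 with it. Its 2 pairs of arrays did not overlap in any derivative. The changes of ZNF511 were −1.48 ± 0.18, −0.65 ± 0.18, −1.21 ± 0.18 and −0.57 ± 0.18, the last with an adjusted p of 0.051. The call in DLD1 WT was lost without either −Gln replicate (−0.65 and −0.64) or without the +Gln replicate 1 (−0.54).

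ZNF692, a repressor first described as binding an element that responds to the AMP analog AICAR, fell in 3 derivatives. It measured 37.4 and 41.2 without glutamine in DLD1 Mut, against 95.5 and 92.7 with it, and 33.4 and 41.6 without in DLD1 WT, against 108 and 79.4 with it. In HCT116 WT it measured 116 and 98.1 without and 108 and 99.7 with glutamine, and the arrays overlapped. The fall of ZNF692 in HCT116 Mut, by 0.64 ± 0.17, was not called without the +Gln replicate 1 or either −Gln replicate there (adjusted p up to 0.117). ZNF704 fell in the same 3 derivatives, by 1.24 ± 0.12 in DLD1 Mut, 0.90 ± 0.12 in DLD1 WT and 1.38 ± 0.12 in HCT116 Mut. ZNF142 was also lower in 3 derivatives, by 0.34 ± 0.10 in DLD1 Mut, 0.61 ± 0.10 in DLD1 WT and 0.34 ± 0.10 in HCT116 WT. The HCT116 WT call of ZNF142 was lost without any of the 4 arrays of that derivative (changes of −0.35 to −0.33). Its DLD1 Mut call was lost without the +Gln replicate 1 or the −Gln replicate 2, and the change was −0.22 at its smallest. ZNF618, a partner of the methylated-DNA reader UHRF2, measured 22.8 and 23.9 without glutamine in HCT116 Mut, against 52.4 and 46.2 with it.

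In HCT116 WT the largest falls were of other genes. ZNF367, a gene of proliferating cells, measured 86.7 and 76 without glutamine there, against 177 and 178 with it, a change of −1.13 ± 0.11 (limma, adjusted p = 5.2e-05). In the other derivatives its changes were −0.12 to 0.21 and none was called. ZNF326, a subunit of the DBIRD complex that couples splicing to transcript elongation, measured 175 and 195 without glutamine in HCT116 WT, against 350 and 350 with it. It also fell in HCT116 Mut, by 0.54 ± 0.09, and changed by 0.01 ± 0.09 in DLD1 Mut. ZNF330, a nucleolar protein gene, measured 153 and 140 without glutamine in HCT116 WT and 226 and 244 with it, a change of −0.68 ± 0.09.

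By role, most chromatin regulators were higher on average. Of the 9 members on that list, 8 were higher and ZNF445 was not called, with changes of 0.21 to 1.00 for those called. Over all tested genes 24.3% were higher on average, and 34.7% at the same brightness, and of all 165 members 57.0%. In HCT116 WT only ZNF532, ZNF592 and ZNF827 of these 9 were called higher. ZNF445 was called lower there, by 0.38 ± 0.12 (limma, adjusted p = 0.041). ZNF532, ZNF592 and ZNF687, which form a complex with the chromatin reader ZMYND8, rose by 1.00 ± 0.07, 0.52 and 0.62 ± 0.09. ZNF532 measured 158 and 182 without glutamine in HCT116 Mut, against 74.5 and 80 with it. ZNF217, an oncogene product that works with the CoREST repressor complex, measured 160 and 160 without glutamine in DLD1 Mut, against 73.7 and 78.5 with it. The SUMO ligase gene ZNF451 rose by 0.53 on average, the H3K9 methyltransferase partner ZNF644 by 0.49, and ZNF827, which recruits the NuRD complex, by 0.52. ZNF638, which silences unintegrated retroviral DNA, rose in DLD1 Mut by 0.64 and changed by −0.02 in HCT116 Mut. The list also held ZNF274, which was below the level limit and is no member; its average change was 1.01.

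The ribosome and RNA factors did not move together. Of 6 members on that list 2 were higher on average, 1 lower and 3 not called. ZNF622, whose yeast counterpart Rei1 acts in late maturation of the large ribosomal subunit, measured 344 and 367 without glutamine in DLD1 Mut, against 138 and 148 with it. In HCT116 WT it measured 120 and 137 without and 134 and 124 with glutamine, and the arrays overlapped. ZNF598, a ubiquitin ligase that marks collided ribosomes, rose by 0.31 ± 0.10 on average. ZNF326, described above, was the one that fell, and ZNF593, ZNF830 and ZNF346 changed by −0.09, 0.06 and 0.10.

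Among the activators ZNF410, which drives CHD4 transcription, rose by 0.48 ± 0.06 on average and ZNF384 by 0.15 ± 0.05, while ZNF143 changed by −0.02. CHD4 itself changed by −0.45 ± 0.06 on average, and a link to ZNF410 was not tested. ZNF91, which represses SVA retroelements and lies just above the level limit, rose by 0.61 ± 0.12 on average. By derivative it was called higher in DLD1 Mut (0.96) and HCT116 Mut (0.87), but not in DLD1 WT (0.42) or HCT116 WT (0.21). The group means of ZNF91 were 5.90 to 6.85 in DLD1 but 3.49 to 4.49 in HCT116 on the log2 scale. It measured 104 and 128 without glutamine in DLD1 Mut, against 58.6 and 60.6 with it. Of the tumour-related regulators ZNF281 rose by 0.38 ± 0.05 on average, ZNF148 changed by 0.10 and ZNF703, amplified in some breast cancers, fell by 0.57 ± 0.10. ZNF281 was called higher in DLD1 Mut (0.70) and WT (0.43) but not in HCT116 Mut (0.18) or WT (0.20). ZNF148 was called higher in DLD1 Mut and WT (0.28 and 0.29, limma, highest adjusted p = 0.048) and changed by −0.14 and −0.02 in HCT116. Among single derivatives ZNF703 was called lower in DLD1 Mut and WT. Its changes in HCT116 Mut and WT, 0.43 and −0.58, were not called, and it was dim there.

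Most genes on a list of KRAB co-repressors and heterochromatin factors were lower without glutamine on average. Of 21 co-repressor and heterochromatin genes 14 fell on average and 2 rose (66.7% and 9.52%), with a median change of −0.34. Among all tested genes 23.5% were lower and 24.3% higher, and among those with a mean log2 of 5 or more 34% and 34.7%. TRIM28, the co-repressor bound by KRAB domains, fell by 0.75 ± 0.04, and its intensity was 539 and 551 without glutamine in DLD1 Mut, against 1015 and 1087 with it. In HCT116 WT it was 844 and 894 without glutamine, against 1291 and 1260 with it, so that TRIM28 was lower without glutamine in every derivative. EHMT2, an H3K9 methyltransferase gene, fell by 1.25 ± 0.05 and UHRF1 by 0.80 ± 0.04. SETDB1, the methyltransferase that TRIM28 recruits, rose by 0.25 ± 0.07 and SMARCAD1 by 0.28 ± 0.04. The list was less one-sided in HCT116 Mut, where 9 of the 21 were called lower and 4 higher, with a median change of −0.15. MORC2, CHD3 and TASOR were called higher there (0.33, 0.39 and 0.46) but lower in DLD1 WT (−0.64, −0.31 and −0.33). Of these, MORC2 was among the 14 that fell on average, and CHD3 and TASOR were not called on average.

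Zinc transport and storage genes were mixed, with 6 higher and 8 lower of 24 tested. These shares, 25% and 33.3%, were near those of all tested genes, 24.3% and 23.5%, and of genes with a mean log2 of 5 or more, 34.7% and 34%. The zinc importer genes SLC39A10 and SLC39A8 fell by 1.25 ± 0.08 and 0.95 ± 0.06, and the exporter gene SLC30A1 rose by 0.80 ± 0.06. Neither family moved in a single direction. SLC39A13 and SLC39A14 were called higher, by 0.55 ± 0.09 and 0.17 ± 0.05, and SLC30A6 was called lower (−0.16 ± 0.05). Zinc finger genes named by other symbols (ZBTB, ZFP, ZKSCAN or ZSCAN with digits, a naming group that also takes in the CCCH gene ZFP36) were also mostly higher. Of 38 with a mean log2 of 5 or more, 22 were higher and 4 lower on average (57.9% and 10.5%), with a median change of 0.29, against 34.7% and 34% of all genes at that brightness. In HCT116 WT 9 of the 38 were higher (23.7%), against 12.7% of ZNF members and 15.8% of all genes at that brightness. Among them ZBTB10 rose by 0.97 ± 0.05 and ZBTB2 fell by 0.90 ± 0.05.

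Members on chromosome 19 had a higher median change than the others. The 64 members there had a median average change of 0.37, with 39 higher and 2 lower, against a median of 0.21 with 55 higher and 10 lower for the 101 members elsewhere. The shares higher were 60.9% and 54.5% and the shares lower 3.13% and 9.90%, against 34.7% higher and 34% lower of all genes at the same brightness, and 24.3% and 23.5% of all tested genes. In DLD1 Mut none of the 64 was lower, and 7 of the other 101 were, against 25.4% of all genes at the same brightness. In HCT116 WT the share higher was 10.9% of the 64 and 13.9% of the 101, against 15.8% at the same brightness. The median changes there were 0.22 and 0.13. Parted wherever neighbouring members lay more than 1 Mb apart, the 64 fell into 14 runs. In the run of 11 members between ZNF557 and ZNF562 10 were higher, with a median of 0.54. Higher members there included ZNF699, ZNF426 and ZNF266. In the run of 13 between ZNF264 and ZNF584 9 were higher and ZNF584 was lower. In the run of 11 between ZNF175 and ZNF761 5 were higher, with a median of 0.25. Neighbouring ZNF genes are often tandem copies with similar sequence, and probes shared between copies were not analysed here. Differences between chromosome 19 and the rest were not tested.

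**Figure D4:**
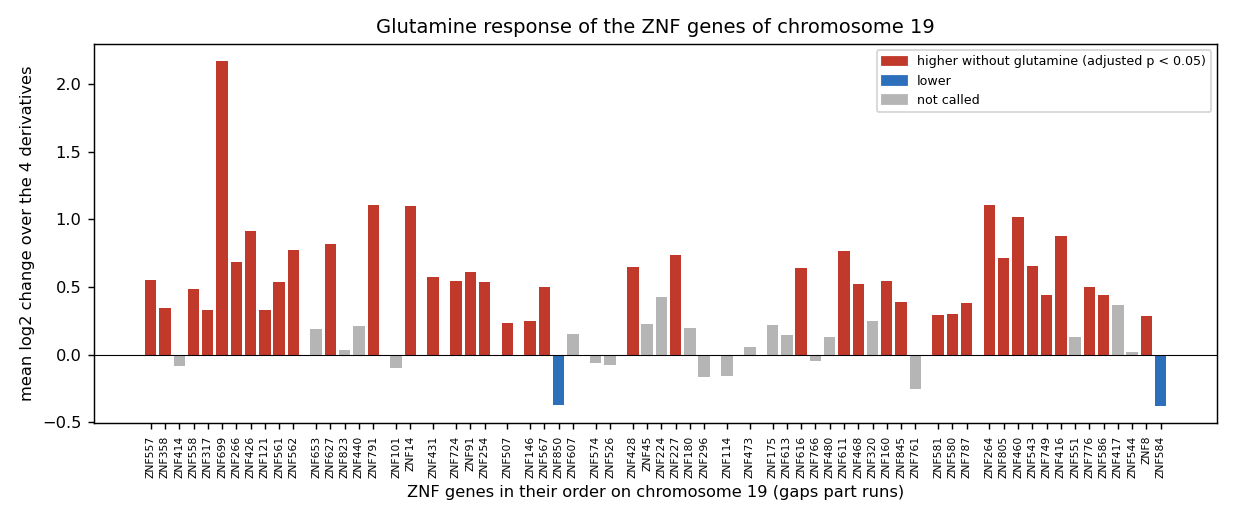
Mean log2 change over the 4 derivatives (vertical axis, without minus with glutamine) of the 64 ZNF genes of chromosome 19, in their order along the chromosome with gaps between runs. ZNF699 stands highest at 2.17, 39 bars are called higher and only ZNF850 and ZNF584 are called lower.

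Parted by brightness into 3 sets of 55, the members had median average changes of 0.34 in the dimmest, 0.30 in the middle and 0.25 in the brightest set. Dimmer ZNF genes outside the members were also more often higher than lower. Of the 192 tested ZNF genes below the level limit 62 were higher and 15 lower on average, shares of 32.3% and 7.81% with a median change of 0.15, against 24.3% and 23.5% of all tested genes. In HCT116 WT 3.13% of them were higher and 1.56% lower, both below the 10.3% and 10.1% of all tested genes.

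Whether the derivatives of a line differed in response was tested per gene as the Mut change minus the WT change. In DLD1 only ZNF431, a KRAB gene, passed, against 0.823% of all tested genes and 1.21% at the same brightness in either direction. ZNF431 measured 153 and 192 without glutamine in DLD1 Mut, against 62 and 65.9 with it, and 51 and 55.9 without in DLD1 WT, against 45 and 47.6 with it. The difference was 1.22 ± 0.21 (limma, adjusted p = 0.036), and it was not called when any of 10 arrays was left out, at differences of 1.05 to 1.38. The members' median difference was 0.16 and 104 of 165 were positive.

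In HCT116 17 members had a higher response in Mut and 5 a lower one (10.3% and 3.03%). Of all tested genes 4.75% were higher and 4.75% lower, and at the same brightness 7.7% and 7.71%. In either direction together the background was 9.49% of all tested genes and 15.4% at the same brightness. The median difference was 0.25, and 116 of the 165 were positive. The share in either direction was 8.48% when the +Gln replicate 2 or a −Gln replicate of HCT116 Mut, or the +Gln replicate 2 of HCT116 WT, was left out, against 13.3% with all arrays.

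The differing members took several forms. ZNF699 rose in both derivatives, 1.80 ± 0.26 more in Mut (limma, adjusted p = 0.00281). ZNF778, a KRAB gene, measured 104 and 109 without glutamine in HCT116 Mut, against 48.3 and 44.2 with it, and 33.5 and 35 without in HCT116 WT, against 40.3 and 46.2 with it. It moved in opposite directions in these arrays, although the fall in HCT116 WT was not called, and the difference was 1.54 ± 0.21. ZNF101 was called in both directions: it measured 92.1 and 86.9 without glutamine in HCT116 Mut, against 62.8 and 57.5 with it, and 43.6 and 47.8 without in HCT116 WT, against 74.6 and 66.5 with it. ZNF704 measured 54 and 56.1 without glutamine in HCT116 Mut, against 140 and 147 with it, and 47.9 and 57.5 without in HCT116 WT, against 54.8 and 59.8 with it. Its difference was −1.25 ± 0.18, and with glutamine its level was itself higher in Mut. ZNF436, a KRAB gene, fell in HCT116 Mut by 0.90 ± 0.12 and changed by 0.27 ± 0.12 in HCT116 WT, a difference of −1.17 ± 0.17.

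**Figure D5:**
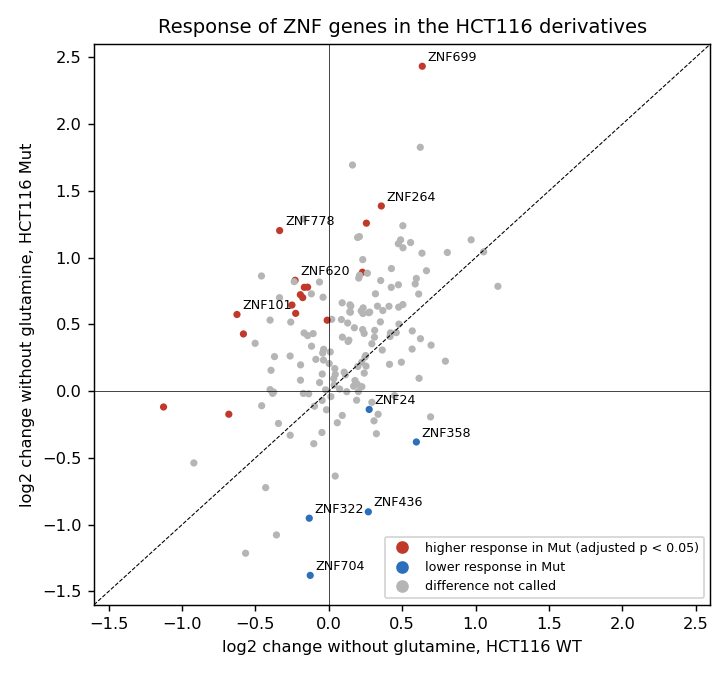
Change of each ZNF gene without glutamine in HCT116 Mut (vertical axis, log2) against that in HCT116 WT (horizontal axis, log2), with the line of equal change dashed and members whose difference had a limma adjusted p below 0.05 coloured. ZNF699 stands far above the line, with 2.43 in Mut and 0.64 in WT, and most members lie above it.

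Between the lines, the response averaged over both derivatives of DLD1 minus that of HCT116 differed for 31 members, 23 higher and 8 lower in DLD1 (13.9% and 4.85%). Of all tested genes 10% were higher and 8.93% lower, and at the same brightness 15.9% and 12.2%, so the share higher was close to the background. In either direction together it was 19% and 28.1%. The share in either direction was 12.1% without the −Gln replicate 2 of DLD1 WT, against 18.8% with all arrays. ZNF622 rose by 0.93 ± 0.10 more in DLD1 (limma, adjusted p = 0.0002) and ZNF699 by 1.27 ± 0.19 more. For ZNF699 the HCT116 average joined unlike changes, 2.43 in Mut and 0.64 in WT, against 2.98 and 2.63 in DLD1 Mut and WT. ZNF703 fell in both DLD1 derivatives and ZNF692 fell more in DLD1, with differences of −0.99 ± 0.20 and −0.99 ± 0.17. The group means of ZNF703 were 5.92 to 7.19 in DLD1 but 3.16 to 3.93 in HCT116 on the log2 scale. It thus passed the level limit only through DLD1, and its HCT116 changes came from dim values. ZNF107 ran in opposite directions, with changes of −0.38 and −0.59 in DLD1 Mut and WT and 1.15 and 0.20 in HCT116 Mut and WT, of which only 1.15 was called.

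With glutamine present, few members differed between Mut and WT. In DLD1 2 were higher and 4 lower in Mut, against 2.6% and 3.2% of all tested genes and 3.42% and 3.89% at the same brightness. In either direction the background was 5.81% and 7.31%. ZNF462, whose loss causes Weiss-Kruszka syndrome, measured 12 and 14.4 in DLD1 Mut and 27.3 and 34.5 in DLD1 WT, a difference of −1.22 ± 0.18 (limma, adjusted p = 0.00251). ZNF778 measured 27.5 and 21.2 in DLD1 Mut, against 13 and 12 in DLD1 WT. In HCT116 3 were higher and 2 lower in Mut, against 1.12% and 2.12% of all tested genes and 1.65% and 3.04% at the same brightness, or 3.23% and 4.69% in either direction. ZNF426, a KRAB gene, measured 4.18 and 7.64 in HCT116 Mut and 46.4 and 34.5 in HCT116 WT, a difference of −2.82 ± 0.24 (adjusted p = 0.000165). Without glutamine it measured 11.8 and 12.6 in Mut and 55.9 and 62 in WT, and 142 to 379 in the 8 DLD1 arrays. These shares also lean on single arrays. In DLD1 3.64% of members differed with all arrays, 1.21% without the +Gln replicate 2 of DLD1 Mut or of DLD1 WT, and 1.82% without the +Gln replicate 1 of DLD1 WT. In HCT116 3.03% differed with all arrays, 1.21% without the +Gln replicate 2 of HCT116 Mut or the +Gln replicate 1 of HCT116 WT, and 1.82% without a +Gln array of DLD1 WT or a −Gln array of DLD1 Mut.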

How the data were processed

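The authors deposited 1 table of linear intensities for 53617 probe sets on 16 arrays; the array type and the labelling are as per the labels' protocols, and the normalization of the deposited values is not given in the sources used here. Near-equal array medians are the only sign of scaling, and array number limits the precision. The log2 of each intensity was taken with no pseudocount. The 23871 probe sets with exactly 1 gene symbol were kept, symbols were updated by Entrez identifier to RefSeq GRCh38.p14, and the brightest probe set stood for each of 22395 genes. The upper 70% by mean log2, 15676 genes with a lowest mean of 1.65, entered limma 3.58.1 (R 4.3.3, lmFit and eBayes, means of 8 groups of 2, 8 residual degrees of freedom). Benjamini-Hochberg adjusted p-values below 0.05 over all tested genes were called. The fit was tested on simulated data with known changes. P-values rest on the spread between replicate cultures, 1 value per gene pooled over all 8 groups and moderated across genes. They measure neither the spread within 1 derivative alone nor that between independent derivatives of a genotype.

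The members and gene lists were chosen with earlier results of these data known. Named members are the largest called changes per contrast, those called in all 4 derivatives, the brightest, those at the level limit and those on role lists. A grouping by KRAB domain and finger number was not analysed here. Alternatives changed the filter, scaling, probe set rule, replicate block, variance model, fit per line, level limit and symbols, and left out each array.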

Additional observations from a re-analysis of the deposited data

Results flagged for a closer look

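For 21 member responses, the test of the difference itself passed at a limma adjusted p below 0.05, either between Mut and WT of a line or between the lines. They are the largest per direction among those called.

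In DLD1 the response of ZNF431 was 1.22 higher in Mut than in WT on the log2 scale. In HCT116 the response was higher in Mut for ZNF699 by 1.80, ZNF778 by 1.54, ZNF101 by 1.20, ZNF620 by 1.06 and ZNF264 by 1.03. It was lower in Mut for ZNF704 (−1.25), ZNF436 (−1.17), ZNF358 (−0.98), ZNF322 (−0.82) and ZNF24 (−0.41). ZNF358 changed by −0.38 in HCT116 Mut and by 0.60 in HCT116 WT, where it was called, and ZNF24, a SCAN-domain gene, by −0.14 and 0.27. Calls of ZNF264, ZNF322 and ZNF24 were lost when any of 14, 15 and 16 arrays was left out, ZNF620 when any of 3 was, and ZNF358 without the +Gln replicate 2 of HCT116 WT (−0.89).

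Between the lines, the response averaged over the derivatives was higher in DLD1 for ZNF699 (1.27), ZNF622 (0.93), ZNF613 (0.88), ZNF322 (0.87) and ZNF462 (0.73). It was lower in DLD1 for ZNF107 (−1.16), ZNF692 (−0.99), ZNF703 (−0.99), ZNF276 (−0.89) and ZNF473 (−0.79). ZNF703 and ZNF613 had a mean log2 below the level limit of 5 in every HCT116 group. The HCT116 changes of ZNF699 were 2.43 in Mut and 0.64 in WT, and only the latter was far from its DLD1 changes of 2.98 and 2.63. ZNF276 lost its call when any of 12 arrays was left out and ZNF473, which takes part in histone mRNA processing, when any of 10 was.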

How the results depend on the processing

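No called change of the members named by the rule changed its direction under the alternatives; the direction of values that were not called was not followed. Over the average of the derivatives, the share of members higher was 54.1% to 61.1% and the share lower 7.27% to 7.79% under the alternatives other than a left-out array. In the single derivatives, fitting each line separately gave 7.27% of members higher in HCT116 WT, and no average or difference of lines. The share lower in HCT116 WT was 2.42% with no brightness filter, with the replicate block and with each line fitted separately, and 6.67% with a level limit of 6. Replicate numbers did not pair the arrays (correlations of replicate differences within a line of −0.02 to 0.03). With the replicate block, no member differed in response between the DLD1 derivatives (0%), and 4.24% of members were higher in all 4 derivatives. The share differing between the DLD1 derivatives was also 0% with no filter and with each line fitted separately, 1.11% with a level limit of 6, 1.82% with genes above the median tested and 3.03% with a trended robust variance. Between the HCT116 derivatives it was 8.48% with no filter, 23.6% with the trended variance and 4.85% with each line fitted separately. With glutamine, the share differing in DLD1 was 6.67% with genes above the median tested and 7.27% with the trended variance. In HCT116 it was 1.82% with no filter, 5.45% above the median, 7.27% with the trended variance and 1.21% with each line fitted separately. Higher in all 4 derivatives were 1.82% with each line fitted separately and 11.1% with a level limit of 6. Lower in all 4 were 0.606% above the median or with the trended variance and 0.433% with a level limit of 4. The cause of these shifts was not tested.

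When each array was left out in turn, the share higher was 30.3% to 44.8% in DLD1 Mut, 13.3% to 31.5% in DLD1 WT, 29.1% to 41.2% in HCT116 Mut, 5.45% to 12.7% in HCT116 WT and 52.7% to 58.8% on average. The share lower was 3.03% to 4.85%, 3.03% to 4.24%, 4.24% to 6.06%, 3.03% to 6.06% and 7.27% to 8.48% in the same order. The share differing in response was 0% to 1.21% between the DLD1 derivatives, 8.48% to 12.7% between the HCT116 derivatives and 12.1% to 18.2% between the lines. With glutamine it was 1.21% to 4.85% in DLD1 and 1.21% to 3.64% in HCT116. Higher in all 4 were 3.64% to 6.67% and lower in all 4 0% to 0.606%. Groups of 2 arrays and 1 derivative per genotype limit the report, as do the unknown normalization and probes that paralogs may share. A left-out array leaves fewer samples in the fit.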

Other observations

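Probe sets that name a ZNF gene together with other genes entered no comparison. Of 44 such probe sets 10 had a mean log2 of 5 or more. Their median difference without minus with glutamine was 0.15 in DLD1 Mut, 0.29 in DLD1 WT, 0.26 in HCT116 Mut and 0.07 in HCT116 WT, and 9, 6, 6 and 5 of the 10 differences were positive.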
